A study of Mus musculus with 6 samples.

Results

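The genes described here encode the machinery that copies DNA in S phase and the enzymes and regulators that supply and time it. They were listed by name from textbook knowledge of replication, at a time when earlier results of these data were known. Of 45 genes on the list, 43 had a probe set with their symbol, among 12393 genes measured in all, and each was represented by its brightest probe set. Gins2 and Chaf1a are not analysed here. Transcript levels came from 6 arrays of total RNA from mouse CD4+CD25+ cells separated with magnets to obtain regulatory T cells (Treg), the CD4+ T cells that restrain immune responses under the transcription factor Foxp3. The wild type group (3 arrays) came from C57BL6 mice. The knockout group (3 arrays) carried the genotype fl-DNMT1/Foxp3cre, with C57BL6 as the strain, that is, a floxed gene for the maintenance DNA methyltransferase Dnmt1 and a Cre recombinase under Foxp3. By this design Dnmt1 is to be deleted in cells that express or have expressed Foxp3, and other cells in the separated pool would keep it. No control is labelled as carrying the Cre or the floxed allele, so their own effects and that of losing Dnmt1 cannot be told apart. The samples are called independent without being assigned to single animals, so the p-values cover no more than the spread among these samples, which may be technical.

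The deposited values are log2 expression per probe set from RMA, which normalises the arrays to a like distribution, and they ran from 1.93 to 14.7 with array medians of 5.69 to 5.77. Across all probe sets, which are no independent replicates, Pearson's r was 0.996 to 0.997 for pairs of wild type arrays and 0.991 to 0.993 for pairs of knockout arrays. Of the 43 replication genes, 37 lay above the median gene level of 6.34. In bulk RNA, fewer cells of a type and less RNA per cell cannot be told apart. Differences below are knockout minus wild type on the log2 scale, and a gene was called when its limma p-value, adjusted over all 12393 genes, was under 0.05.

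A dividing cell prepares replication in G1, when the origin recognition complex, Cdc6 and Cdt1 load the ring-shaped Mcm helicase on DNA, a step called licensing that geminin later blocks. In S phase, Cdc45 and the GINS complex turn the loaded ring into an active helicase, polymerase alpha with its primase starts each strand, and polymerases delta and epsilon extend it on the sliding clamp PCNA. Many of these genes are transcribed through E2F factors once the retinoblastoma protein is phosphorylated, so that their transcripts are low in resting lymphocytes and high in cycling ones. Dnmt1 works at the same forks, where it copies methylation onto the new strand. Treg are known as a lineage with many cycling cells in healthy mice.

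The letters TTTNNCGC, where N is any base, are a loose form of the core that E2F factors recognise. They were looked for on both strands of the promoter windows in the RefSeq table (build GRCm38.p6), which reach from 250 bases before to 50 after each start. Of the 45 listed genes, 37 had a window there, and 12 of these (32.4%) held the letters, as did 1602 of 27025 genes in the table (5.93%). The 12 were Orc1, Cdc6, Cdt1, Mcm3, Mcm5, Mcm6, Mcm7, Pola1, Pold1, Rfc3, Lig1 and Tyms. A match is a description of letters and not of a bound site, and overlapping matches count once per gene. The windows below show this shared feature upstream of 3 genes that were among those with the lowest p in either direction, and of Cdc6, added after its wide spread over the knockout arrays was seen. Each is written 5′ to 3′ on the gene's strand, and capitals mark the matched letters.
Orc1, chr4:108579387-108579453, plus strand: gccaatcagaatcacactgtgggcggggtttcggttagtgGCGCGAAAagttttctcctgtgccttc
Rfc3, chr5:151651209-151651258, minus strand: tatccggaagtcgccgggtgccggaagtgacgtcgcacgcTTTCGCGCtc
Mcm6, chr1:128359706-128359855, minus strand: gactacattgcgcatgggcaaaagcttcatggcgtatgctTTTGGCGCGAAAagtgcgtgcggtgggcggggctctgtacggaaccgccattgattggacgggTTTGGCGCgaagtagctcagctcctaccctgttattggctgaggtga
Cdc6, chr11:98907973-98908060, plus strand: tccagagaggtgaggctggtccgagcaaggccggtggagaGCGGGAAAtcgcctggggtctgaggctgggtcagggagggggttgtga
The Mcm6 window holds 3 matches, of which a pair on opposite strands overlaps, and the others hold 1 each. The nearest match ended 3 bases before the start in Rfc3, 20 in Orc1, 40 in Mcm6 and 131 in Cdc6.

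No replication gene was called higher and none lower in the knockout (0 of 43 in each direction), where 1.33% of all genes were called higher and 0.573% lower. By limma, 3 of the 43 (6.98%) had an unadjusted p under 0.05, against 17.9% of all genes. The arrays of the groups did not overlap for the same share, 3 of 43, against 25.0% of all genes, and these were Orc2 on the low side and Rpa2 and Rpa3 on the high side. The differences ran from -0.33 (Orc2) to 0.28 (Rfc3), at most a 1.26-fold difference, and 29 were positive and 14 negative. Their median was 0.090, and that of all genes -0.014. The sign of the median rested on knockout replicate 3: without that array the median was -0.062, with 17 positive and 26 negative. The smallest adjusted p was 0.163 (Orc2) and the largest 0.997 (Rfc1).

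The intervals describe how large a mean difference these arrays leave possible under the limma fit. That fit gives both groups of a gene a common variance and draws it towards that of other genes. The knockout SD was mostly the larger in these genes, as described below, so the intervals are no firm bound. The 95% interval lay within 1 log2 unit on either side for 42 of 43 genes (97.7%, against 95.4% of all genes). The exception was Rrm2, whose interval ran from -0.46 to just past 1.00. Within 0.5 log2 units lay 27 of 43 intervals (62.8%), against 77.6% of all genes.

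**Figure D1:**
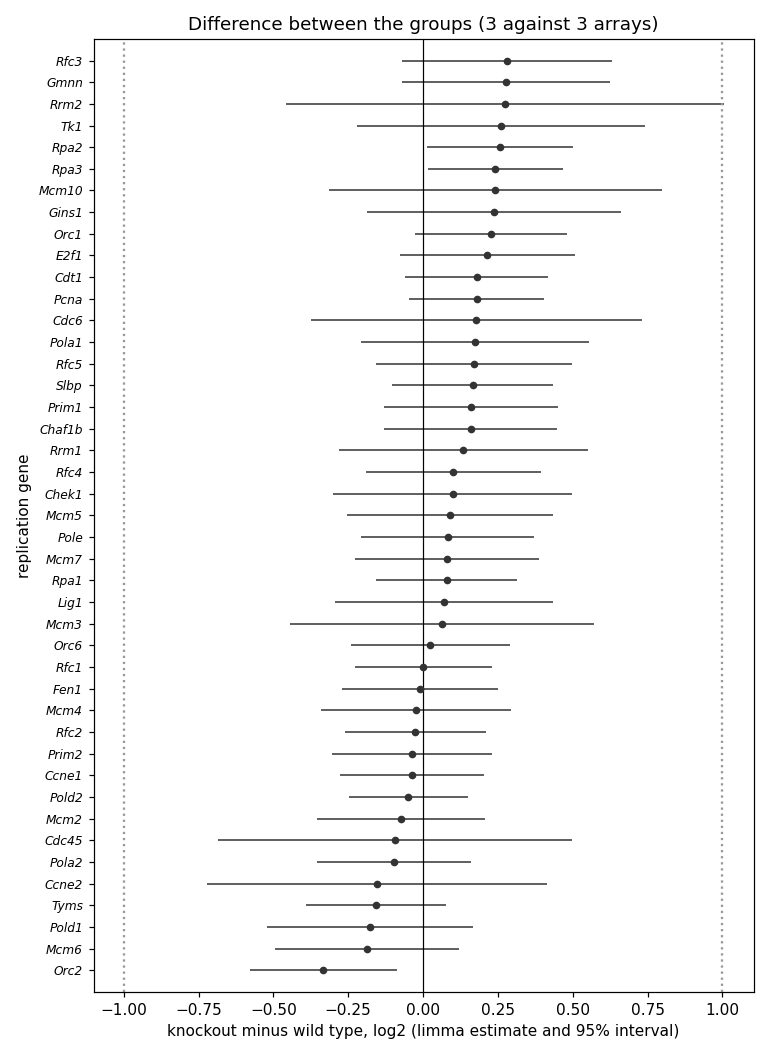
Knockout minus wild type difference (log2, horizontal) of each of the 43 replication genes, ordered by size, from 3 against 3 arrays. Points are limma estimates, bars their 95% intervals and dotted lines a 2-fold difference. Only the bars of Orc2, Rpa2 and Rpa3 stay on 1 side of 0 and only that of Rrm2 reaches past a dotted line, and none of the genes passed after adjustment over all genes.

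The spread within the knockout group, in contrast, was wide and ran the same way in most of these genes. The mean over the 43 genes was 7.81, 7.69 and 7.73 on wild type replicates 1, 2 and 3. It was 7.75, 7.61 and 8.09 on knockout replicates 1, 2 and 3. The knockout arrays spanned 0.48 log2 units and enclosed the wild type arrays, which spanned 0.12, and the group means were 7.74 ± 0.06 and 7.82 ± 0.25 (SD, n = 3). Without knockout replicate 3 the knockout range was 0.14, and without knockout replicate 2 it was 0.33.

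Knockout replicate 3 had the highest knockout value in 39 of 43 genes (90.7%), where it had the highest in 30.3% of all genes. Replicate 1 was highest in the other 4 (Orc2, Rpa1, Rpa3 and Rfc2). Knockout replicate 2 was lowest in 34 (79.1%, against 36.3% of all genes) and replicate 1 in 9. The whole order, replicate 3 above 1 above 2, held in 30 genes (69.8%), against 16.4% of all genes. Replicate 3 also lay above every wild type array in 37 genes (86.0%, against 29.8%). Replicate 2 lay below every wild type array in 22 (51.2%), close to the share among all genes at or above the median level (51.3%), and replicate 1 lay within the wild type range in 21.

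Measured as knockout replicate 3 minus the mean of the other knockout arrays, all 43 values were positive, from 0.042 (Rfc2) to 1.19 (Rrm2), with a median of 0.36. Of the 43, 25 exceeded the 95th percentile of all genes, 0.34. The median SD over the knockout arrays was 0.23 and over the wild type arrays 0.092, while it was 0.12 and 0.094 over all genes. The knockout SD was the larger in 40 of 43 genes (93.0%, against 62.7%), and the median ratio of the SDs was 3.08, against 1.35 over all genes and 1.82 over genes at or above the median level. That ratio was 1.35 over the 43 genes without knockout replicate 3 and 2.03 without knockout replicate 2. With an array left out the knockout SD rests on fewer arrays, so these values do not compare directly with the ratios over all genes. Genes of 1 programme share their arrays, so these counts describe 3 knockout samples and not 43 independent ones.

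**Figure D2:**
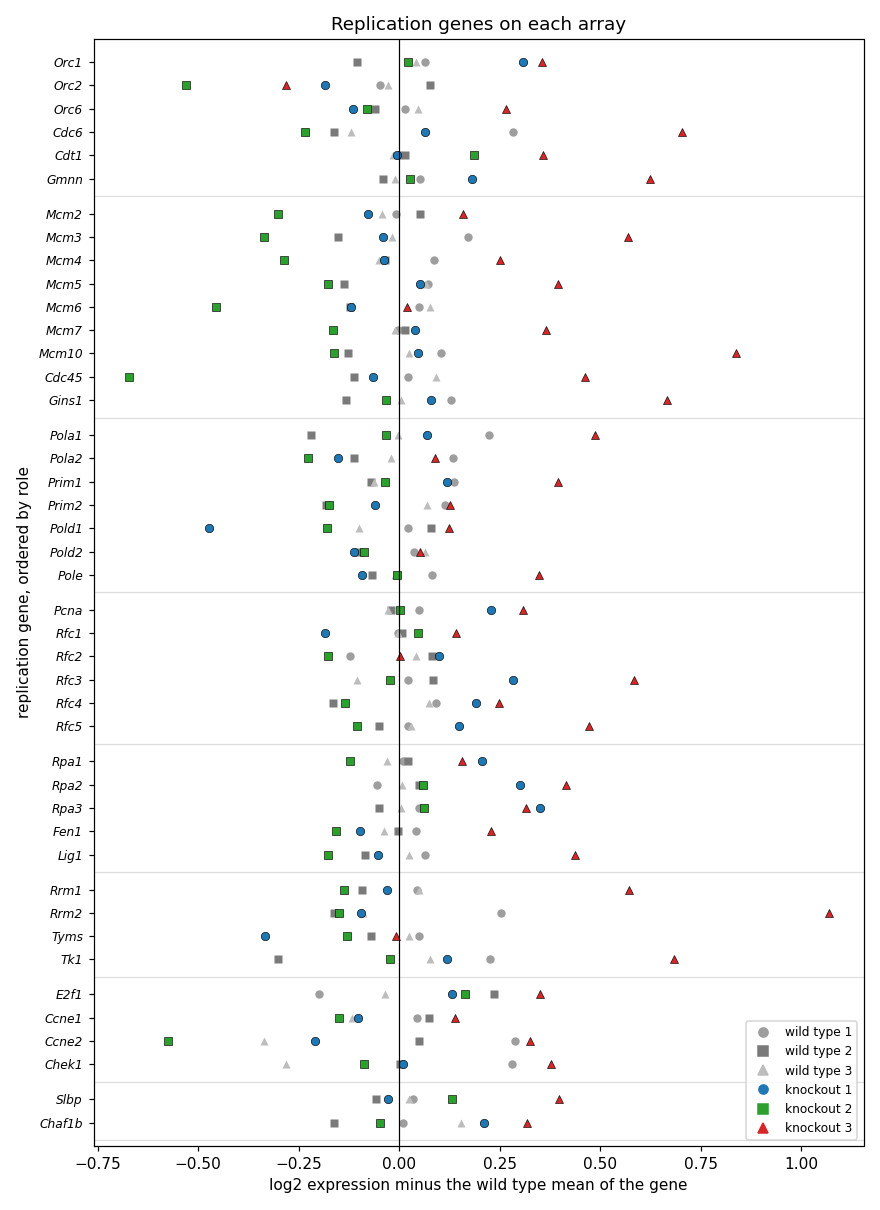
Log2 expression of the 43 replication genes on each array minus the wild type mean of that gene (horizontal), with genes grouped by role from licensing at the top to histone supply at the bottom. Grey symbols are the 3 wild type arrays and coloured symbols the 3 knockout arrays. Knockout replicate 3 (red) lies to the right of both other knockout arrays in 39 genes and knockout replicate 2 (green) to their left in 34.

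**Figure D3:**
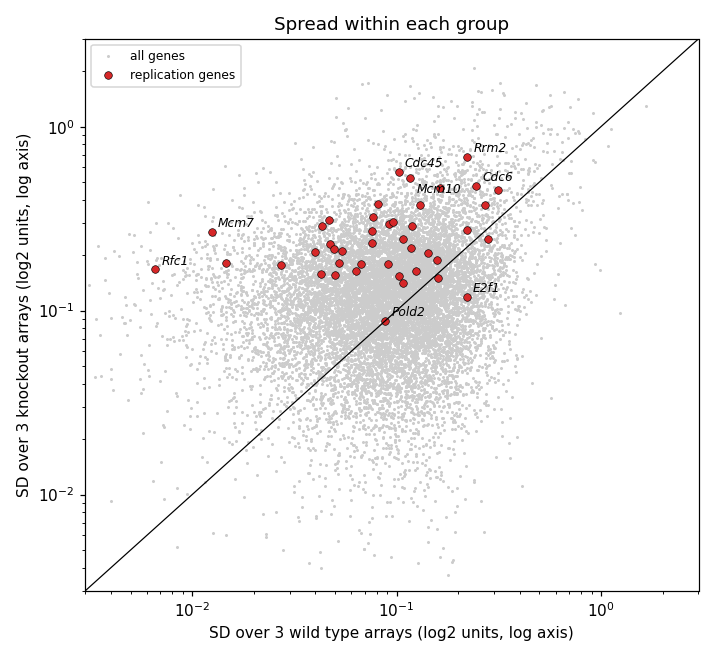
SD over the 3 knockout arrays against SD over the 3 wild type arrays (log2 units, both axes logarithmic) for each replication gene (red) and for all genes (grey). The diagonal marks equal SDs, and 40 of the 43 replication genes lie above it, with Rrm2 and Cdc45 highest.

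Licensing genes held both the lowest and one of the highest differences. Orc2, a subunit of the origin recognition complex, had 6.47, 6.59 and 6.49 in wild type and 6.33, 5.98 and 6.23 in the knockout (difference -0.33, SE 0.11, adjusted p = 0.163). All its knockout arrays lay below all wild type arrays. A further Orc2 probe set had a difference of 0.042 and another -0.31, so the probe sets did not share a direction. Orc1, the largest subunit of the same complex, went the other way, with 4.69, 4.53 and 4.67 in wild type and 4.94, 4.65 and 4.98 in the knockout (0.23, adjusted p = 0.324). Its groups overlapped only through knockout replicate 2.

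Gmnn encodes geminin, which binds Cdt1 and prevents a second round of licensing. It had 8.59, 8.50 and 8.52 in wild type and 8.72, 8.56 and 9.16 in the knockout (0.28, SE 0.15, adjusted p = 0.383). Cdt1 itself, the loader of the helicase, had 9.90, 9.91 and 9.88 in wild type and 9.89, 10.08 and 10.25 in the knockout (0.18, adjusted p = 0.413). For both genes the wild type arrays lay close together while knockout replicate 3 stood well above them. The ATPase Cdc6 had the fourth widest knockout spread, with 6.64, 6.19 and 6.23 in wild type and 6.42, 6.12 and 7.06 in the knockout (SD 0.48). The sixth gene of this role, Orc6, had a difference of 0.024 (adjusted p = 0.938), and 5 of the 6 differences were positive.

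The replicative helicase showed the ordering of the knockout arrays in all 9 of its genes, with replicate 3 highest and replicate 2 lowest. Its mean level was 8.41, 8.26 and 8.35 in wild type and 8.33, 8.05 and 8.75 in the knockout. The Mcm2 to Mcm7 genes encode the subunits of the ring, and Mcm6 was the lowest of them by its difference. Mcm6 had 10.16, 9.99 and 10.19 in wild type and 10.00, 9.66 and 10.14 in the knockout (-0.19, SE 0.13, adjusted p = 0.510). Its second probe set had a difference of -0.42 and, at 0.178, the smallest adjusted p of the further probe sets of these genes, so neither was called. On that second probe set all knockout arrays lay below all wild type arrays, with knockout replicate 3 the nearest to them at 8.62.

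Mcm2 had 9.04, 9.10 and 9.01 in wild type and 8.98, 8.75 and 9.21 in the knockout (-0.073, adjusted p = 0.793). Mcm7 had 10.54, 10.56 and 10.54 in wild type and 10.59, 10.38 and 10.91 in the knockout (0.080, adjusted p = 0.795). In both, knockout replicates 2 and 3 lay on opposite sides of a narrow wild type range, so the mean barely moved. Mcm3, Mcm4 and Mcm5 had differences of 0.063, -0.024 and 0.090. The further Mcm3 probe sets had differences of 0.053, -0.024, -0.11 and -0.15, so the probe sets of that gene did not share a direction.

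The factors that switch the ring on were among the genes with the widest knockout spread. Cdc45, which joins the ring to form the active helicase, had 5.65, 5.51 and 5.72 in wild type and 5.56, 4.95 and 6.09 in the knockout (SD 0.57, difference -0.092). Mcm10, needed to fire the assembled helicase, had 6.32, 6.09 and 6.24 in wild type and 6.26, 6.05 and 7.06 in the knockout (SD 0.53, difference 0.24). For Cdc45 the knockout arrays lay on both sides of wild type, whereas for Mcm10 a single array stood apart. The GINS subunit gene Gins1 resembled Mcm10, with knockout replicate 3 at 7.17 and its other 5 arrays between 6.37 and 6.63. Without knockout replicate 3, 1 of the 9 helicase genes had a positive difference and their median was -0.16, against 5 of 9 and 0.063 with it.

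Polymerase genes had a median difference of -0.036, with 3 of 7 positive. Pold1, the catalytic subunit of polymerase delta, had 8.34, 8.39 and 8.21 in wild type and 7.84, 8.14 and 8.44 in the knockout (-0.18, SE 0.15, adjusted p = 0.580). Its second subunit Pold2 had 8.52, 8.38 and 8.55 in wild type and 8.37, 8.40 and 8.53 in the knockout, the narrowest knockout spread of the 43 genes (SD 0.088). Pole, the catalytic subunit of polymerase epsilon, had 6.84, 6.69 and 6.75 in wild type and 6.67, 6.75 and 7.11 in the knockout (0.083, adjusted p = 0.771). Knockout replicate 3 was nonetheless the highest knockout array in all 7 genes of the role.

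Among the subunits of polymerase alpha and its primase, Pola2 had 7.84, 7.59 and 7.68 in wild type and 7.55, 7.48 and 7.79 in the knockout (-0.097, adjusted p = 0.695). The catalytic subunit gene Pola1 and the primase genes Prim1 and Prim2 had differences of 0.17, 0.16 and -0.036. Their groups all overlapped.

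The sliding clamp and its loader had 5 of 6 positive differences and a median of 0.14. Pcna, the clamp that holds polymerases on DNA, had 11.48, 11.41 and 11.40 in wild type and 11.66, 11.43 and 11.74 in the knockout (0.18, SE 0.096, adjusted p = 0.384). Rfc3, a subunit of the loader that opens the clamp, had 6.40, 6.46 and 6.27 in wild type and 6.65, 6.35 and 6.96 in the knockout (0.28, SE 0.15, adjusted p = 0.383). In both genes knockout replicates 1 and 3 lay above all wild type arrays and replicate 2 among them. Rfc4 and Rfc5 had differences of 0.10 and 0.17, Rfc2 -0.025 and Rfc1 0.0013. On the probe set used, Rfc1 had 7.94, 7.95 and 7.94 in wild type and 7.76, 7.99 and 8.09 in the knockout. There a mean difference near 0 went with knockout arrays on both sides of wild type. Its further probe sets had differences of -0.20 and -0.14. On the first of these, nearly as bright, all knockout arrays lay below all wild type arrays.

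The single-strand binding protein RPA, which coats the unwound template, gave the lowest p among the positive differences. Rpa3 had 8.50, 8.40 and 8.46 in wild type and 8.80, 8.52 and 8.77 in the knockout (0.24, SE 0.097, adjusted p = 0.253). Rpa2 had 8.20, 8.30 and 8.26 in wild type and 8.55, 8.31 and 8.67 in the knockout (0.26, SE 0.11, adjusted p = 0.259). All their knockout arrays lay above all wild type arrays, with knockout replicate 2 just above. The large subunit gene Rpa1 had 10.62, 10.63 and 10.58 in wild type and 10.81, 10.48 and 10.76 in the knockout (0.079, adjusted p = 0.731). Of the enzymes that process and seal Okazaki fragments, the flap nuclease gene Fen1 had a difference of -0.0096 and the ligase gene Lig1 0.069. Lig1 was at 9.06 on knockout replicate 3 and between 8.45 and 8.69 on the other 5 arrays.

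Nucleotide supply had the largest median gap of knockout replicate 3 over the other knockout arrays, 0.64, against 0.22 for the clamp and loader at the low end of the 8 roles. Rrm2, the S phase subunit of ribonucleotide reductase, had 9.50, 9.09 and 9.16 in wild type and 9.15, 9.10 and 10.32 in the knockout (0.27, SE 0.31, adjusted p = 0.699). Its knockout SD of 0.69 was the widest of the 43 and came from replicate 3 alone, since the other knockout arrays lay among the wild type arrays. Rrm1, the other subunit of the enzyme, had 8.76, 8.62 and 8.76 in wild type and 8.68, 8.58 and 9.29 in the knockout. Tk1, the thymidine kinase of cycling cells, was at 7.71 on knockout replicate 3 and between 6.72 and 7.25 on the other 5 arrays. These genes shared the single high array. Tyms, the thymidylate synthase, had 3.66, 3.54 and 3.63 in wild type and 3.27, 3.48 and 3.60 in the knockout (-0.16, SE 0.10, adjusted p = 0.464). All 3 Tyms probe sets had levels below 4 on every array, near the floor of these values, so a change in its transcript may be understated.

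Of the genes that time S phase, E2f1, an activating E2F factor, had 5.61, 6.05 and 5.78 in wild type and 5.94, 5.98 and 6.16 in the knockout (0.22, SE 0.13, adjusted p = 0.420). On the probe set used, E2f1 was 1 of the 3 genes whose wild type SD was not smaller than its knockout SD. A further E2f1 probe set had the opposite order of spread, with a knockout SD of 0.10 and a wild type SD of 0.030. There every knockout array exceeded every wild type array (difference 0.22, limma adjusted p = 0.238 over 20380 probe sets). The cyclin genes Ccne1 and Ccne2, whose products activate Cdk2 at the entry into S phase, had small negative differences. Ccne1 had 7.01, 7.04 and 6.85 in wild type and 6.86, 6.81 and 7.10 in the knockout (-0.038, adjusted p = 0.883). Ccne2 had 4.54, 4.30 and 3.92 in wild type and 4.04, 3.68 and 4.58 in the knockout (-0.15, adjusted p = 0.785). Both groups were spread widely in Ccne2, and the checkpoint kinase gene Chek1 had a difference of 0.099 with overlapping arrays.

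Histone supply was measured by a pair of genes. Slbp, which binds the stem-loop of replication-dependent histone transcripts, had 9.76, 9.67 and 9.75 in wild type and 9.70, 9.86 and 10.13 in the knockout (0.17, SE 0.12, adjusted p = 0.501). Chaf1b, a subunit of the chromatin assembly factor that deposits histones behind the fork, had 6.37, 6.20 and 6.51 in wild type and 6.57, 6.31 and 6.68 in the knockout (0.16, adjusted p = 0.551). Both had their highest value on knockout replicate 3.

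**Figure D4:**
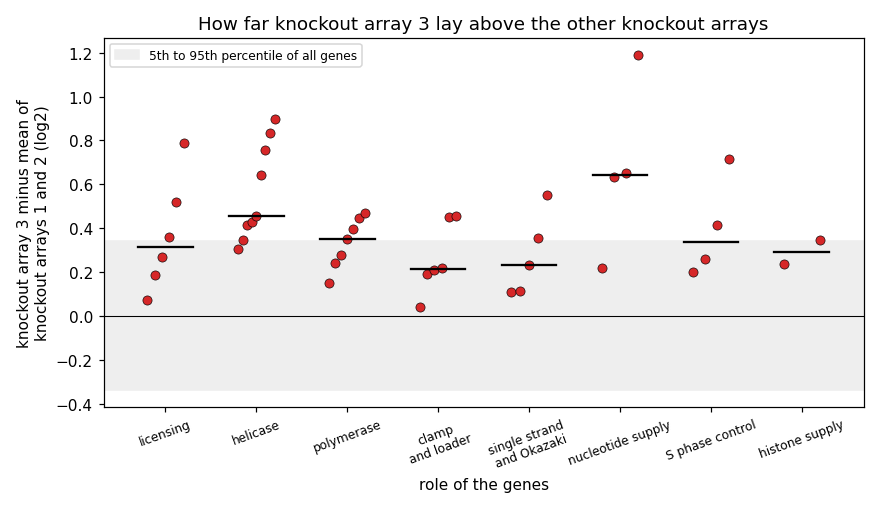
Knockout replicate 3 minus the mean of knockout replicates 1 and 2 (log2, vertical) for each of the 43 replication genes, by role, with a horizontal line at each role's median. The grey band runs from the 5th to the 95th percentile of all genes. All points lie above 0 and 25 above the band, with Rrm2 the highest at 1.19.

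Most further probe sets of these genes ordered the knockout arrays alike. The 43 genes had 79 probe sets, and of the 36 not used above, 30 were highest on knockout replicate 3 among the knockout arrays and 27 lowest on knockout replicate 2. None of the 36 was called (smallest limma adjusted p 0.178 over 20380 probe sets), and 25 had the same sign of difference as the probe set used. Among the genes with a promoter window, the median gap of knockout replicate 3 was 0.45 in the 12 with the E2F letters and 0.31 in the 24 without. These values overlapped, at 0.19 to 0.79 and 0.076 to 1.19.

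A second list held 57 other genes of replication and its surveillance, of which 45 were measured, such as other origin and GINS subunits, accessory polymerase subunits and mismatch repair genes of the fork. None of the 45 was called in either direction, 20 had a positive and 25 a negative difference, and the median was -0.047. Its lowest p belonged to Msh6, a mismatch recognition subunit, with 8.39, 8.18 and 8.37 in wild type and 7.94, 7.68 and 7.95 in the knockout (-0.45, SE 0.11, adjusted p = 0.0859). Pold4, the smallest subunit of polymerase delta, had 8.04, 8.23 and 8.06 in wild type and 7.87, 7.77 and 7.56 in the knockout (-0.38, SE 0.10, adjusted p = 0.128). Neither gene was high on knockout replicate 3 relative to wild type. Without knockout replicate 1, the nuclease gene Dna2 was called higher (0.52, adjusted p = 0.0405), as 1 of 45. In that setting 358 of all 12393 genes were called higher and 186 lower. The list's means were 7.78, 7.69 and 7.74 in wild type and 7.68, 7.59 and 7.89 in the knockout, and knockout replicate 3 was the highest knockout array in 29 of 45 genes (64.4%).

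Among 22 measured genes of the E2F family, the retinoblastoma proteins, their kinases and the inhibitors of those kinases, 1 was called. Cdkn2d encodes p19, an inhibitor of Cdk4 and Cdk6, and had 8.99, 9.06 and 9.02 in wild type and 9.69, 9.62 and 9.42 in the knockout (0.55, SE 0.091, adjusted p = 0.0330). Its knockout arrays lay well above wild type, with replicate 3 the lowest. Leaving out any wild type array or knockout replicate 2 ended the call (adjusted p up to 0.151), while the difference stayed between 0.50 and 0.63. The related inhibitor gene Cdkn2b had 4.46, 4.23 and 3.98 in wild type and 4.97, 4.56 and 5.10 in the knockout (0.65, adjusted p = 0.112). Myc, a growth regulator on the same list, had 8.90, 8.88 and 9.03 in wild type and 8.74, 8.53 and 8.47 in the knockout (-0.36, adjusted p = 0.120). Of the 22 genes, 17 had a positive difference, with a median of 0.19. The count of calls rose from 1 to 5 without knockout replicate 1, with 4 higher and 1 lower. Calls over all 12393 genes rose as well without that array, from 165 to 358 higher and from 71 to 186 lower. Beside Cdkn2d, the genes then called higher were Cdkn1a (1.02, adjusted p = 0.0199), which encodes the inhibitor p21, Cdk6 (0.79, 0.0111) and the cyclin D3 gene Ccnd3 (0.51, 0.0363), and Myc was called lower (-0.44, 0.0461).

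Genes of mitosis were also highest on knockout replicate 3, by a wider gap. All 19 measured members were highest on knockout replicate 3 among the knockout arrays and above all wild type arrays there, and the median gap over the other knockout arrays was 0.94. The list's means were 7.36, 7.10 and 7.23 in wild type and 7.23, 7.13 and 8.06 in the knockout. None was called, and all 19 differences were positive, with a median of 0.25. Cdc20, an activator of the anaphase-promoting complex, had 8.09, 7.94 and 8.02 in wild type and 8.19, 8.04 and 9.07 in the knockout (0.42, SE 0.25, adjusted p = 0.424). Ube2c, the ubiquitin-conjugating enzyme of that complex, had 8.85, 8.50 and 8.51 in wild type and 8.74, 8.72 and 9.74 in the knockout (0.45, SE 0.27, adjusted p = 0.438). The direction of this list rested on 1 array: without knockout replicate 3, 9 of 19 differences were positive and the median was -0.014. The E2F letters stood in the promoter windows of 1 of 17 mitosis genes (5.88%) and 18 of 44 genes (40.9%) of the second replication list.

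The gene targeted in the knockout also differed between the knockout arrays. Dnmt1 had 9.56, 9.43 and 9.50 in wild type and 8.67, 8.89 and 9.34 in the knockout (-0.53, SE 0.16, adjusted p = 0.152). On the probe set used, the brighter of 2, its knockout values lay below wild type on all 3 arrays. They lay nearest to wild type on knockout replicate 3, the array with the high replication genes. The other Dnmt1 probe set is not described here. Foxp3 had 9.47, 9.51 and 9.51 in wild type and 9.28, 8.82 and 8.43 in the knockout (-0.66, SE 0.19, adjusted p = 0.142). It was thus lowest on knockout replicate 3. Single arrays decided both calls: Dnmt1 was called lower without knockout replicate 3 (-0.72, adjusted p = 0.0433) and Foxp3 without knockout replicate 1 (-0.87, adjusted p = 0.0187). The position of the Dnmt1 probe sets against the floxed exons is unknown here, so they do not check the deletion.

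The mean of 5 Treg markers was 9.11, 9.01 and 9.13 in wild type and 8.79, 8.56 and 8.23 in the knockout, and that of 5 T cell markers 11.12, 11.09 and 11.14 and 11.20, 10.83 and 10.81. Both lists were thus present on all arrays, and the Treg list was lowest on knockout replicate 3. On each list all 5 differences were negative, and 2 of the Treg genes, Il2ra and Ikzf2, were called (adjusted p = 0.0432 and 0.0403). Both calls were lost when a wild type array or knockout replicate 3 was left out, and that of Il2ra also without knockout replicate 2.

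Markers of other blood cells were measured as well, and several lists held genes called higher in the knockout. The mean of 7 neutrophil markers was 6.77 to 7.48 in wild type and 9.92, 12.39 and 10.87 on knockout replicates 1, 2 and 3, with 6 of 7 called higher. That of 5 granulocyte precursor markers, genes of a cell that itself divides, was 4.08 to 4.15 in wild type and 5.0, 6.0 and 5.1 in the knockout, with 2 of 5 called higher. Both lists were highest on knockout replicate 2, the array on which the replication genes were lowest, and this held for each of their 12 genes. All 12 were higher on every knockout array than on every wild type array. These orders rest on 3 knockout arrays, and the part of these cells in the spread of the replication genes was not tested.

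Other lists were less uniform. The mean of 4 erythroid markers was 3.71 to 3.95 in wild type and 4.24, 4.12 and 4.72 in the knockout, highest on replicate 3 in 3 of 4 genes and with none called. The haem synthesis gene Alas2 had 6.1, 5.0 and 7.0 on the knockout arrays and 4.24 to 5.01 in wild type (adjusted p = 0.151, and 0.0426 without knockout replicate 2, where it was called higher), while the globin gene Hba-a1 was between 3.15 and 3.57 on all arrays. The mean of 4 thymocyte markers was 3.76 to 3.91 in wild type and 3.83 to 3.96 in the knockout, with Rag1 between 3.48 and 4.12 on all arrays. The 5 markers of NK and CD8 cells averaged 7.46 to 7.70 in wild type and 7.31, 8.25 and 8.10 in the knockout, with 1 called higher, Ncr1. That list did not move as one: Ncr1 had a difference of 2.50 and Prf1 0.52, while Cd8a, Cd8b1 and Gzma had -0.36, -0.61 and -0.66, and the median of the 5 was -0.36.

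The remaining lists did not have their highest mean on knockout replicate 3. The monocyte and macrophage mean was 6.66, 7.58 and 6.90 on the knockout arrays (5.95 to 6.57 in wild type, 1 of 5 called higher, Cd14). The B cell mean was 6.92, 7.69 and 7.43 (7.11 to 8.27, 0 of 5 called) and the plasma cell mean 8.22, 7.80 and 7.44 (7.42 to 7.57, 0 of 4 called). The 10 calls on neutrophil, precursor, monocyte and NK markers were lost without wild type replicate 1 or 3, 9 of them (all but S100a8) without replicate 2 and 5 without knockout replicate 3. Calls were also gained, of Mmp8 and Ms4a3 without knockout replicate 1 or 2, and of Prf1 without knockout replicate 1. The part of these cell types in the spread of the replication genes was not tested.

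**Figure D5:**
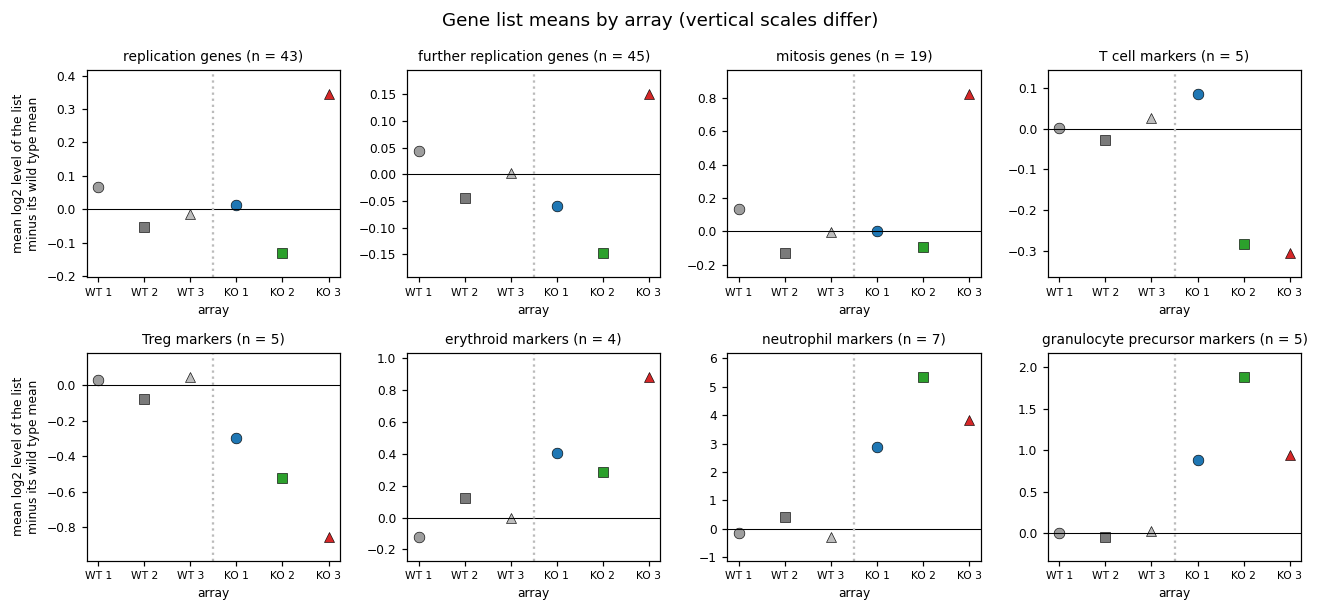
Mean log2 level of a gene list on each array minus its wild type mean (vertical, scales differ between panels), for wild type (WT) and knockout (KO) replicates 1 to 3. The replication and mitosis lists and the erythroid markers are highest on knockout replicate 3, the Treg markers lowest there, and the neutrophil and granulocyte precursor markers highest on knockout replicate 2.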

How the data were processed

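The deposited values are log2 expression, which the authors computed for each probe set by RMA according to the submitters' processing notes. Its version is not given in the sources used. The platform annotation gave 1 gene symbol to 20380 of 22690 probe sets, several to 691 and none to 1555, and 64 were controls. Each gene took its brightest probe set by the mean of 6 arrays. Groups were compared with limma 3.58.1 (lmFit, eBayes) in R 4.3.3, two-sided, with no filter, Benjamini-Hochberg adjustment over all 12393 genes and calls under 0.05. The fit was tested on simulated data with independent genes and equal spread in both groups. That test does not cover the wider, shared spread of the replication genes over the knockout arrays. RMA compresses low levels, and 3 arrays a group limit the precision. The replication genes, roles and lists were chosen with earlier results of these data known. Values on each array are given for the 8 lowest p in each direction, the widest and narrowest knockout spreads, and the brightest and dimmest gene of a role; Rrm1, Rfc1 and the values on knockout replicate 3 of Gins1, Tk1 and Lig1 were added after their values were seen, as were Dna2, Alas2, Hba-a1, Rag1, the CD8 and NK markers and the genes called only with an array left out. Deviations of same-numbered arrays correlated at -0.082, 0.15 and -0.041, so the numbers were not taken as pairs. Alternatives were quantile normalisation, median centring, leaving out the dimmest 40% of genes, averaging probe sets, array weights, a trended robust variance, the replicate number as a block and leaving out each array. Python 3.11.15 with matplotlib 3.10.9 drew the figures.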

Additional observations from a re-analysis of the deposited data

How the results depend on the processing

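No replication gene was called under any alternative run, the smallest adjusted p being 0.0879 (Orc2 without knockout replicate 1). The alternatives that keep all arrays left the median difference between 0.062 and 0.15. With arrays left out in turn, the median difference was -0.062 (without knockout replicate 3) to 0.20, the median SD ratio 1.35 (without knockout replicate 3) to 4.49, the knockout range 0.14 (likewise) to 0.48, the second replication list's calls 0 to 1 and the calls over all genes 21 to 544, from 236 (21 without wild type replicate 1 or 3, 44 without 2, 115 without knockout replicate 3, 544 without 1). With the numbers as a replicate block, 147 genes were called, 112 higher and 35 lower; no other call reported for the replication genes changed with it. Knockout replicate 3 was the highest knockout array for 39 genes after quantile normalisation and after median centring, 40 with probe sets averaged, and 36 of 40 without the dim genes, checks chosen after seeing the data. Of the 43 differences, 20 changed sign under some alternative, none of them called: Fen1 with quantile normalisation (0.0067), averaged probe sets (0.00056) and array weights (0.041), Orc6 (-0.0036) and Rfc1 (-0.026) with centring, Mcm3 (-0.032) and Rfc1 (-0.11) with averaged probe sets, and Ccne1 (0.0050), Cdc45 (0.026) and Mcm4 (0.037) with array weights. With 1 array left out, the ranges were -0.13 to 0.018 for Ccne1, -0.39 to 0.058 for Ccne2, -0.37 to 0.20 for Cdc45, -0.085 to 0.38 for Cdc6, -0.042 to 0.24 for Chek1, -0.13 to 0.064 for Fen1, -0.12 to 0.19 for Lig1, -0.058 to 0.44 for Mcm10, -0.19 to 0.041 for Mcm2, -0.19 to 0.26 for Mcm3, -0.16 to 0.11 for Mcm4, -0.062 to 0.22 for Mcm5, -0.063 to 0.20 for Mcm7, -0.097 to 0.093 for Orc6, -0.050 to 0.17 for Pole, -0.13 to 0.033 for Prim2, -0.069 to 0.094 for Rfc1, -0.088 to 0.051 for Rfc2, -0.084 to 0.27 for Rrm1 and -0.12 to 0.49 for Rrm2. The cause was not tested. Signal limits Tyms, Orc1 and Ccne2, whose levels lay near the lower end of the values, and 3 arrays a group limit the precision of every difference.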
